A study of Mus musculus with 81 samples.

Results

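Interferon-stimulated genes are switched on when a cell meets interferon, and 35 of them, chosen as a list of symbols, were followed here through normal mouse thymus and thymic lymphomas. All 35 were found among the 51826 genes of the deposited count table, and all 35 passed the filter on low counts in every fit described below. They comprise 3 Ifit RNA-binding proteins, the ubiquitin-like modifier Isg15 and its protease Usp18, 2 Mx GTPases, 5 members of the oligoadenylate synthetase family, 4 transcription factors, 3 RNA sensors, 2 p200 DNA-binding proteins, 5 interferon-inducible GTPases and 9 other effectors. The question was whether chromosomally unbalanced tumours carry an interferon response.

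Type I interferons bind a receptor on the cell surface, and a complex that includes Stat2 and Irf9 then binds the interferon-stimulated response element in the promoters of its targets. Interferon gamma acts through another promoter element, the gamma-activated site. DNA that leaks into the cytoplasm, as can happen when chromosomes missegregate, is sensed by cGAS and can start the same programme. In the thymus, epithelial and dendritic cells are known to make interferon in the absence of infection.

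The study measured RNA in 81 libraries from 40 mice on a mixed C57BL/6 and 129S4Sv/Jae strain background. Every mouse, controls included, carried a Plk4 transgene at Col1a1 (Plk4 is the kinase that drives centriole duplication), the rtTA transactivator at Rosa and a centrin-GFP reporter at Rosa. The groups were normal thymus of untreated p53+/+ mice (8 mice, 8 libraries), lymphomas of p53-/- mice without doxycycline (10 mice, 23 libraries), and lymphomas of p53-/- mice (9 mice, 18 libraries) and p53+/- mice (12 mice, 31 libraries) given doxycycline for 2 weeks from 30 days of age. A single p53+/- normal thymus entered no test, and no untreated p53+/- lymphoma was analysed here. In 13 tumours, 4 or 5 biopsies were sequenced separately (54 libraries). Biopsies of a tumour were summed, so that the mouse was the replicate.

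Libraries held between 1.03 and 26.87 M counts. Trp53 had a median of 6.65 log2 CPM in normal thymus and of 5.44, 5.44 and 5.29 in the untreated null, treated null and treated heterozygous tumours, and whole-gene counts do not show which exons were read. Males, by label, were 4 of 8 normal mice and 9 of 10, 4 of 9 and 3 of 12 lymphoma mice in the same order, and sex was a term of every fit between groups. In 3 mice the label and the sex genes disagreed, and without them the counts of members called against normal thymus, given below, were 14, 23 and 16. Normal mouse 387 stood apart: its 12 T-lineage markers summed to 1310 CPM against a median of 7280 in the group, its 9 thymic epithelial markers to 134 against 1650, its 8 B-lineage markers to 1580 against 126 and its 5 fat cell markers to 9100 against 1990. Untreated p53-/- tumour 881 also stood apart. Its T-lineage markers were at 242 CPM, the lowest of its group, and its B-lineage markers at 4030 CPM against a group median of 36.1. In the same group tumours 202 and 120 had mean T-lineage levels of 3.96 and 4.79 log2 CPM against 6.29 to 8.18 in the other seven without 881, and tumour 202 had the highest NK cell markers (277 CPM against a median of 3.66) and plasmacytoid dendritic cell markers (164 against 29.2). Fits with the mouse as the replicate were therefore also run without these mice, and counts from them are given below. The comparison of biopsies, which includes tumours 881 and 202, was not rerun without them.

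Promoters were searched for both elements. RefSeq promoter windows (GRCm38.p6, 250 bases before to 50 after the start site) were present for 26 of the 35 members. The response element, searched as GAAANNGAAA on both strands with overlapping matches allowed, occurred in 16 of the 26 (61.5%), against 3.99% of 27025 genes with a window. The gamma-activated site, searched as TTCNNNGAA, which reads the same on both strands, occurred in 6 of 26 (23.1%), against 9.55% of all genes. A match describes the letters only and is not a measured binding site.

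The 160 bases before the start site of 5 members are shown on the gene's own strand, to set 3 members that fell in all 3 lymphoma groups beside 2 that did not. Capitals mark the response element in Ifit1 (chr19:34640729-34640888, plus strand), Ifit3 (chr19:34583369-34583528, plus), Gbp2 (chr3:142620503-142620662, plus) and Isg15 (chr4:156200819-156200978, minus), and the gamma-activated site in Irf1 (chr11:53769854-53770013, plus).
Ifit1: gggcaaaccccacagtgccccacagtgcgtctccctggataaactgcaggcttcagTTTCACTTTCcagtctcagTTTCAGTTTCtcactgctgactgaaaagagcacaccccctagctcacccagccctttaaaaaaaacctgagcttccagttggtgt
Ifit3: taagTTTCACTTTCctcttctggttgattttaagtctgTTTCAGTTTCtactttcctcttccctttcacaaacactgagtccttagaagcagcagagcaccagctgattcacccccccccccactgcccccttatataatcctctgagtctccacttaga
Gbp2: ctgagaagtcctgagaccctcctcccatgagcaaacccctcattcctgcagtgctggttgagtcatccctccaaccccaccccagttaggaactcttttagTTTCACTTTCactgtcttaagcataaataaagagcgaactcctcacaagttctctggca
Isg15: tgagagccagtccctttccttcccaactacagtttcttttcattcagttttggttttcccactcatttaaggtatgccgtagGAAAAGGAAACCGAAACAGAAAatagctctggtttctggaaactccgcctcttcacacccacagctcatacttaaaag
Irf1: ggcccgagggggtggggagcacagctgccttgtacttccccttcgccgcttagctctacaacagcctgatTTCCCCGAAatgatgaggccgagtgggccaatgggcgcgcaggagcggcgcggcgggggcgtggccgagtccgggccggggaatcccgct

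Ifit1 and Ifit3 each hold 2 matches and Gbp2 holds 1. Isg15 holds 3 matches that overlap one another, starting 78, 72 and 66 bases before the start site. Among the 12 members that were lower in all 3 lymphoma groups (below), 11 had a window and 7 of these held the element. Among the 10 members that were lower in no group, 6 had a window and 3 held it, so that members with the element stood on both sides.

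The first comparison set each lymphoma group against normal thymus. Between 14 and 25 of the 35 members passed the test as lower in a lymphoma group, and 1 member passed as higher, in 1 group. In edgeR's quasi-likelihood test with Benjamini-Hochberg adjustment over 17843 genes (threshold 0.05), 0 members were higher and 14 lower in untreated p53-/- lymphomas, where 23.2% of all genes tested were higher and 17.5% lower. The treated p53-/- tumours had 0 higher and 25 lower, against 25.4% and 26.7% of all genes. Their p53+/- counterparts had 1 higher and 17 lower, against 25.6% and 25.3%. The median log2 change of the members was -0.82, -1.36 and -0.76 in that order, and that of all genes tested was 0.08, -0.04 and -0.00. These contrasts share the same 8 normal mice, which were all untreated and p53+/+. Each contrast changes tumour state and p53 genotype together, and those of treated tumours also doxycycline, so these cannot be told apart. A set of 12 members was lower in all 3 contrasts (Ifit1, Ifit3, Oas2, Oasl2, Irf9, Stat2, Ifih1, Igtp, Gbp2, Gbp3, Ifi35 and Ifi44) and 10 were lower in none. In bulk tissue, fewer cells of a type and less RNA per cell cannot be told apart.

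**Figure D1:**
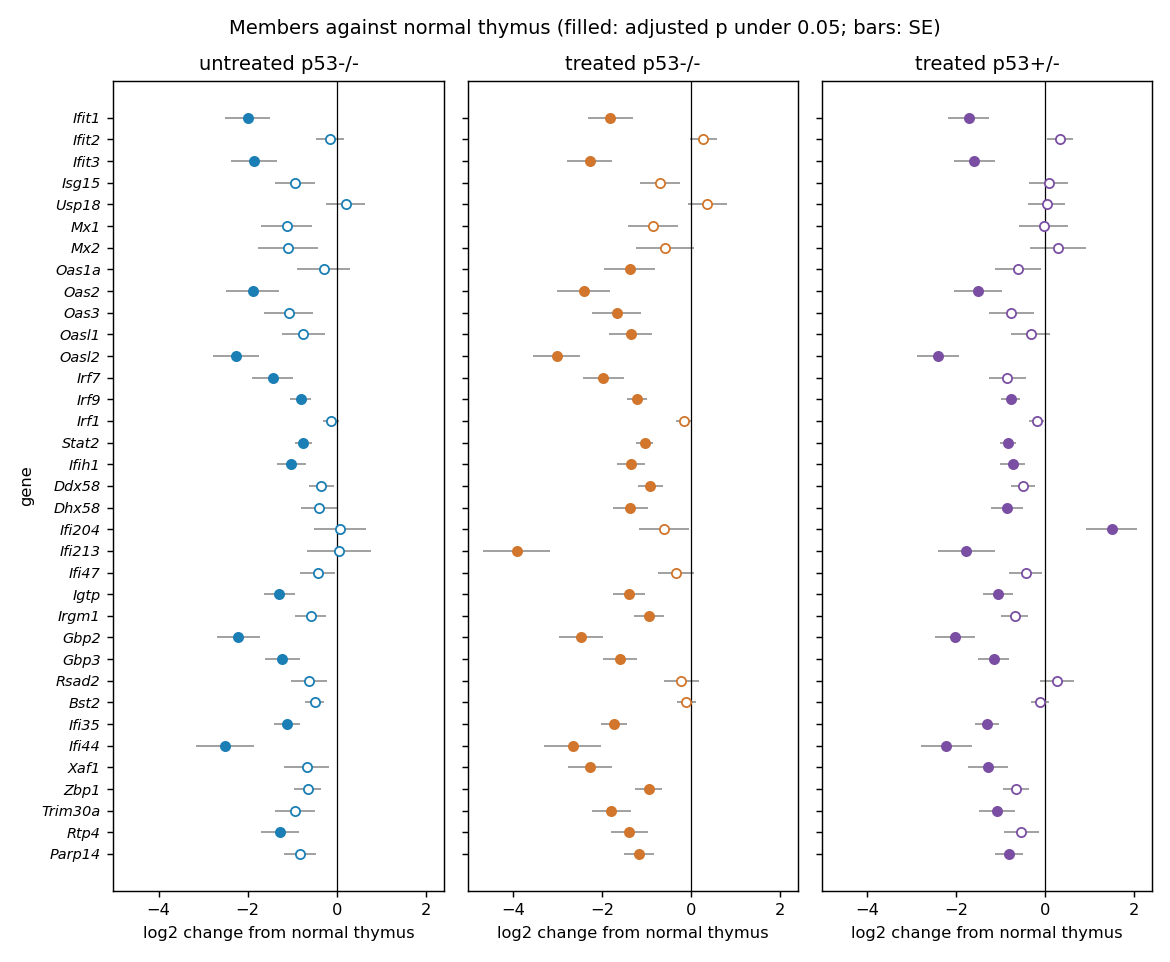
Log2 change of each of the 35 members from normal thymus (x axis) in each lymphoma group, from the edgeR fit; bars are standard errors and filled points have an adjusted p under 0.05. Filled points lie to the left of 0 except Ifi204 in treated p53+/- lymphomas, at 1.50.

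Markers of other cell types differed between the same groups. The 9 thymic epithelial markers summed to a median of 1650 CPM in normal thymus (range 134 to 2350) and to medians of 74.3, 59.8 and 45.2 CPM in the lymphomas of the same order (ranges 16.2 to 403, 11.9 to 163 and 11.5 to 154). Of these markers 5, 8 and 7 of 9 were lower, and none was at 0 in every mouse of a group. Outside mouse 387 (2.66), the mean of these markers was at least 5.82 log2 CPM in normal thymus and at most 4.06 in the lymphomas. As a covariate this mean therefore nearly repeats the split between normal thymus and lymphoma, and the fit cannot separate them. With it, 2, 10 and 2 members were called lower in place of 14, 25 and 17. Stat2 and Gbp2 were the members still called in all 3 groups, with log2 changes of -0.96, -1.24 and -1.05 for Stat2 and of -2.09, -2.35 and -1.92 for Gbp2 (edgeR adjusted p from 0.000777 to 0.0232). The 8 B-lineage markers had median sums of 126 CPM in normal thymus and 36.1, 22.7 and 32.5 CPM in the lymphomas, and 0, 7 and 6 of them were lower. The 5 NK cell markers had median sums of 14.7, 3.66, 1.75 and 2.38 CPM, and of the 3 tested 0, 2 and 1 were lower. With the B-lineage markers as a covariate the counts were 9, 13 and 6, all lower. Of 5 conventional dendritic cell markers 4 were lower in each group, with a median sum of 47.1 CPM in normal thymus and 17.1, 15.9 and 17.9 CPM in the lymphomas. Of 4 plasmacytoid dendritic cell markers Siglech and Klk1 were lower in each group (4.51-fold to 22.2-fold) and Cox6a2 was higher in each. All 5 fat cell markers were lower in each group, with a median sum of 1990 CPM in normal thymus and 51.3, 75.6 and 63.9 CPM in the lymphomas, and no fit had them as a covariate. The 12 T-lineage markers had median sums of 7280 CPM in normal thymus and 3570, 5110 and 4430 CPM in the lymphomas, with 4, 2 and 1 lower and 0, 1 and 1 higher, and Cd4 was 5.10-fold, 5.62-fold and 4.40-fold lower. Of 8 markers of mesenchyme and endothelium 2, 2 and 3 were lower, Dcn and Kdr in each group, and 2, 1 and 1 higher, Pdgfrb in each. The 10 macrophage markers had similar median sums of 1020, 1100, 933 and 998 CPM, with 0, 1 and 0 of them lower and none higher. With their mean as a covariate 15, 24 and 16 members were lower. The share of all genes called in these covariate fits is not given here. Changes in count therefore cannot be read as particular to the members. The covariate fits do not say which cells the members' RNA came from, and the part of these cells in the result was not tested otherwise.

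Without normal mouse 387 the members called were 13, 23 and 10, of which 13, 23 and 9 were lower. Without untreated tumours 881, 202 and 120, which had the 3 highest member means of their group (4.72, 4.16 and 4.43 log2 CPM), 21 members were lower in untreated p53-/- lymphomas. Without both mouse 387 and tumour 881 the members called were 15, 22 and 11 (15, 22 and 10 lower). The treated p53+/- count moved by over 1.5 times without this normal mouse, and Oas2, Ifih1, Dhx58, Ifi213, Gbp3, Xaf1, Trim30a and Parp14 lost their call there. The share of all genes called in these refits is not given here. The moves therefore cannot be read as particular to the members.

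The Ifit proteins bind foreign RNA and were divided. Ifit1 (ENSMUSG00000034459, chromosome 19) ranged from 4.41 to 5.66 log2 CPM in normal thymus (median 4.91). Its medians were 3.13 in untreated p53-/- (range 1.70 to 4.08), 2.98 in treated p53-/- (0.65 to 4.27) and 2.7 in treated p53+/- lymphomas (0.69 to 5.23). All untreated and treated p53-/- tumours and 10 of 12 treated p53+/- tumours lay below every normal thymus. Ifit1 was 4.01-fold, 3.51-fold and 3.30-fold lower (edgeR adjusted p = 0.00157, 0.00284 and 0.00181). Ifit3 (ENSMUSG00000074896) had log2 changes of -1.85 (SE 0.52), -2.28 (SE 0.51) and -1.59 (SE 0.46), with edgeR adjusted p-values of 0.00419, 0.000331 and 0.00382. Its near copy Ifit3b gave -1.91, -2.21 and -1.71, and how the deposited estimates divided reads between the pair is uncertain. Ifit2, which lies beside them, had values of -0.16, 0.28 and 0.34, none of which passed the test.

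Among the oligoadenylate synthetases, which make the second messenger that activates RNase L, Oasl2 (ENSMUSG00000029561) had the largest fall in treated p53+/- lymphomas. Normal thymuses ranged from 5.36 to 6.78 log2 CPM (median 6.26). The lymphomas ranged from 0.56 to 5.26 in untreated p53-/- (median 3.91), from 1.76 to 4.25 in treated p53-/- (3.13) and from 1.86 to 4.99 in treated p53+/- mice (3.70). No lymphoma reached the lowest normal thymus. Oasl2 was 4.81-fold, 8.08-fold and 5.32-fold lower (edgeR adjusted p = 0.000741, 1.47e-05 and 5.73e-05). All 5 members of the family were lower in treated p53-/- lymphomas and 2 of 5, Oas2 and Oasl2, in each of the other groups. With the thymic epithelial covariate the log2 changes of Oasl2 were -0.71, -1.31 and -0.65, and none passed (edgeR adjusted p = 0.397, 0.0858 and 0.41). For Oas1a the call in treated p53-/- lymphomas (-1.38, edgeR adjusted p = 0.041) was lost under 7 of 15 alternatives, and the value was 0.24 with the thymic epithelial covariate (adjusted p = 0.84).

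**Figure D2:**
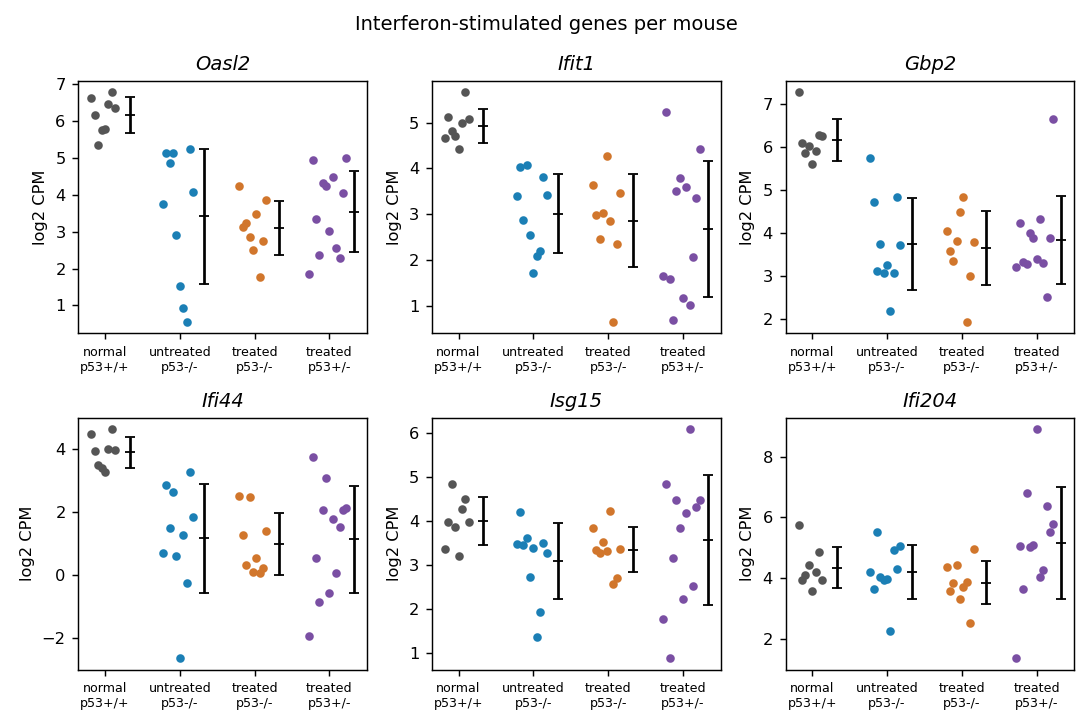
Log2 CPM (y axis) of 6 members in each mouse of the 4 groups, with group mean and standard deviation as bars. All lymphomas lie below the normal thymuses for Oasl2, whereas Isg15 overlaps between groups and Ifi204 spreads most in treated p53+/- lymphomas, from 1.35 to 8.91.

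The transcription factors carry the signal to the promoters, and Irf1 was the one of 4 that passed in no group. Stat2 (ENSMUSG00000040033) ranged from 5.85 to 6.45 log2 CPM in normal thymus and had medians of 5.46, 5.09 and 5.30 in the 3 lymphoma groups, with 8 of 10, 9 of 9 and 11 of 12 tumours below every normal thymus. Its log2 changes were -0.75 (SE 0.20), -1.04 (SE 0.19) and -0.84 (SE 0.18), with edgeR adjusted p-values of 0.00233, 3.24e-05 and 0.000205, and it kept its call under each of the 15 alternatives computed for each contrast. Irf9, which acts in a complex with Stat2, had changes of -0.81, -1.21 and -0.78 (edgeR adjusted p = 0.00525, 3.83e-05 and 0.00238). Irf7, which amplifies type I interferon production, had changes of -1.44, -1.97 and -0.86, and the last did not pass the test (edgeR adjusted p = 0.0855). Irf1, a target of interferon gamma, was at -0.13, -0.16 and -0.19.

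Of the RNA sensors, Ifih1 (which encodes MDA5) had changes of -1.02, -1.36 and -0.74 (edgeR adjusted p = 0.0104, 0.000511 and 0.0329), the last call being lost under 5 of 15 alternatives. Ddx58, which encodes RIG-I, was lower in treated p53-/- lymphomas at -0.92 (edgeR adjusted p = 0.00642). Dhx58, which encodes LGP2, was lower in both treated groups, at -1.36 and -0.86 (edgeR adjusted p = 0.00334 and 0.0407). The second call was lost under 9 of 15 alternatives, among them sex taken from the sex genes, and was 0.31 with the thymic epithelial markers as a covariate (edgeR adjusted p = 0.649). The first was lost with the B-lineage and with the thymic epithelial covariate, at -0.17 with the latter (edgeR adjusted p = 0.817).

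Interferon-inducible GTPases act at the membranes that enclose pathogens. Gbp2 (ENSMUSG00000028270) ranged from 5.62 to 7.28 log2 CPM in normal thymus, the highest value being that of mouse 387. In the lymphomas its medians were 3.49, 3.80 and 3.63, and 9 of 10, 9 of 9 and 11 of 12 tumours were below every normal thymus. It was 4.62-fold, 5.53-fold and 4.09-fold lower (edgeR adjusted p = 0.000364, 8.85e-05 and 0.000258). DESeq2 gave Gbp2 log2 changes of -2.23, -2.49 and -2.06 with no adjusted p, so that tool made no call on it. Igtp fell by 1.29, 1.40 and 1.06 on the log2 scale (edgeR adjusted p = 0.00397, 0.00148 and 0.00762). Of these calls the first was lost with single-biopsy tumours only and with the thymic epithelial covariate, and the last with the B-lineage and the thymic epithelial covariate. Irgm1 passed in treated p53-/- lymphomas alone, at -0.94 (edgeR adjusted p = 0.0196), with -0.59 and -0.69 in the others, and this call was lost under 5 of 15 alternatives. Ifi47 did not pass, at -0.43, -0.34 and -0.44.

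The p200 proteins bind DNA, and in treated p53+/- lymphomas 1 was higher and 1 lower. Ifi204 was the member called higher: in treated p53+/- lymphomas its log2 change was 1.50 (SE 0.58, edgeR adjusted p = 0.0291). Normal thymuses ranged from 3.56 to 5.75 log2 CPM and treated p53+/- lymphomas from 1.35 to 8.91, so that 4 of 12 lay above every normal thymus and 1 below. The call was lost under 6 of 15 alternatives, among them single-biopsy tumours only and limma voom on single biopsies. Ifi213 had a median of 3.59 log2 CPM in normal thymus and of -0.17 in treated p53-/- lymphomas, where all 9 mice lay below every normal thymus. It was 15.2-fold lower there (edgeR adjusted p = 5.77e-05) and 3.42-fold lower in treated p53+/- lymphomas (edgeR adjusted p = 0.019). In untreated p53-/- lymphomas it ranged from -0.79 to 6.09 and was at 0.05. Both lie in a cluster of similar genes on chromosome 1, so their estimates are uncertain.

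Isg15, often taken as the marker of an interferon response, did not pass in any contrast. Its medians were 3.98 log2 CPM in normal thymus and 3.42, 3.33 and 4.01 in the lymphoma groups, with ranges of 3.20 to 4.84, 1.35 to 4.20, 2.55 to 4.23 and 0.87 to 6.09. The log2 changes were -0.94, -0.69 and 0.07 (edgeR adjusted p = 0.0949, 0.196 and 0.901). Usp18 (0.20, 0.36 and 0.03) and Mx1 (-1.12, -0.85 and -0.04) did not pass either. Among the other effectors, Ifi44 had the largest fall in untreated p53-/- lymphomas, at -2.52 (SE 0.66, edgeR adjusted p = 0.00237), with -2.66 and -2.22 in the treated groups (adjusted p = 0.000795 and 0.00157). It lost its call in each group with the thymic epithelial covariate, and in treated p53+/- lymphomas also with single-biopsy tumours only. Zbp1, a sensor of Z-form nucleic acid, passed in treated p53-/- lymphomas at -0.95 (edgeR adjusted p = 0.0104). This call was lost with the B-lineage and with the thymic epithelial covariate. Rsad2 (viperin) and Bst2 (tetherin) did not pass in any group, with changes between -0.62 and 0.26.

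Median expression changes differed between chromosomes, by up to 0.49 on the log2 scale from 0. Subtracting the median change of the chromosome from each member left 34, 32 and 29 of 35 values negative, against 32, 33 and 29 before, with medians of -1.05, -1.40 and -0.80.

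The rest of the pathway was read from a list of 122 genes. Of 21 interferon genes none passed the filter on low counts. Ifnb1 had at most 2 counts in any mouse, and the highest counts were 79 for Ifng, in a treated p53+/- tumour, and 21 for Ifnz. Among all genes tested 17.5%, 26.7% and 25.3% were lower, which the counts of such small lists are to be read against. Of 6 receptor genes 2, 3 and 5 were lower and none higher, led by Ifnlr1 at -2.58 in treated p53-/- lymphomas (edgeR adjusted p = 0.00204). Of 6 other interferon regulatory factors 3, 6 and 5 were lower. Irf4, a factor of lymphocyte differentiation, was at 0.82, -2.97 and -1.30 and passed in treated p53-/- lymphomas (edgeR adjusted p = 0.00139). Of 59 other interferon-stimulated genes 27, 47 and 35 were lower and 1, 1 and 2 higher. Isg20, an exonuclease, fell most in 2 of the groups, with log2 changes of -3.65, -4.06 and -3.56 (edgeR adjusted p = 2.76e-09, 4.5e-10 and 3.54e-10).

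Of 11 DNA sensing genes 2, 2 and 3 were higher, where 23.2%, 25.4% and 25.6% of all genes were, and 2, 5 and 3 lower, against 17.5%, 26.7% and 25.3%. Most of these counts are near the share of all genes. Mb21d1, which encodes the DNA sensor cGAS, was higher at 1.94 (SE 0.55), 1.89 (SE 0.53) and 1.56 (SE 0.51), with edgeR adjusted p-values of 0.00453, 0.00311 and 0.00977. Rnaseh2b, a subunit of the enzyme that removes ribonucleotides from DNA, was higher at 1.24, 2.01 and 2.15. Trex1, which degrades cytoplasmic DNA, was lower at -0.76, -1.14 and -0.59, and Samhd1, which limits nucleotides, at -1.57, -2.67 and -2.09. Aim2, an inflammasome DNA sensor, was lower in treated p53-/- lymphomas at -2.48 (edgeR adjusted p = 0.0015). Of 5 feedback inhibitors 1, 1 and 2 were lower and 0, 1 and 1 higher. Among them Socs1 was lower in untreated p53-/- and treated p53+/- lymphomas, at -1.93 and -1.09.

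The second comparison asked whether the lymphoma groups differed in these genes. In the edgeR fit of 16389 genes 0 members were called in each of the 3 contrasts, as was 0% of all genes. At an unadjusted p under 0.05 there were 2 members for doxycycline within p53-/- mice (11.7% of all genes), 7 for p53+/- against p53-/- within treated mice (5.27%) and 2 for treated p53+/- tumours against the untreated group (6.33%). The last contrast changes both p53 genotype and doxycycline. DESeq2 called 1, 0 and 0 members and voom 0 in each, and the share of all genes these tools called there is not given here. The 7 members were all higher in treated p53+/- lymphomas, and the median log2 difference of all 35 there was 0.47 against 0.03 over all genes. Ifi204 differed most by p, at 2.09 (SE 0.61, edgeR adjusted p = 0.934). The single DESeq2 call was Ifi213, lower in treated than in untreated p53-/- lymphomas at -3.84 (DESeq2 adjusted p = 0.000939); in edgeR the same difference was -3.83 (adjusted p = 0.181). The median difference of the 35 members between these groups was -0.28, and -0.05 without tumours 881, 202 and 120.

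The mean log2 CPM over the 35 members summarised each mouse. It was 4.78 ± 0.37 (SD, n = 8) in normal thymus, 3.70 ± 0.74 (SD, n = 10) in lymphomas of p53-/- mice without doxycycline, 3.39 ± 0.42 (SD, n = 9) in those with it, and 3.80 ± 0.66 (SD, n = 12) for p53+/- mice. Below the lowest normal thymus (4.10) lay 7 of 10, 9 of 9 and 7 of 12 tumours. Tumour 908 (treated p53+/-) was the highest at 4.86 and tumour 637 (untreated p53-/-) the lowest at 2.33. The p53+/- normal thymus was at 5.11.

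Chromosome imbalance was then set against the members tumour by tumour. It is the SD over 19 autosomes of the median log2 ratio to normal thymus. It was measured on 14762 genes without the members and the pathway list, and reads expression rather than DNA. In bulk tissue it can also vary with the share of tumour cells, which was not measured. Its mean was 0.034 in normal thymus (range 0.019 to 0.053), 0.247 in untreated p53-/- (0.115 to 0.326), 0.315 in treated p53-/- (0.273 to 0.383) and 0.302 in treated p53+/- lymphomas (0.224 to 0.378). Among the 31 lymphomas, with group and sex in the edgeR model, 0 members followed imbalance at an adjusted p under 0.05, as did 0.0671% of all genes. At an unadjusted p under 0.05 there were 8 members, against 13.0% of all genes. Of these 8, 7 rose with imbalance and Ifi204 fell.

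Ifit3 had the lowest p, with a slope of 1.56 log2 units per 0.1 of imbalance (SE 0.42, edgeR adjusted p = 0.101). Ifi44 followed at 2.18 (SE 0.61, edgeR adjusted p = 0.122) and Ifi204 at -1.56 (SE 0.46, edgeR adjusted p = 0.136). Irf7 had a slope of 1.25 (SE 0.40, edgeR adjusted p = 0.181). The median slope was 0.19 over the members and 0.01 over all genes. DESeq2 called 4 members, namely Ifit3, Ifi44 and Irf7 upward and Ifi204 downward, and 2.57% of all genes. The thymic epithelial markers had a median slope of 1.69 and the conventional dendritic cell markers of 0.85 in the same edgeR fit, none of them called, and their part in the members' slopes was not tested. Leaving out each tumour in turn, or tumours 881, 202 and 120 together, gave 0 members called every time.

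**Figure D3:**
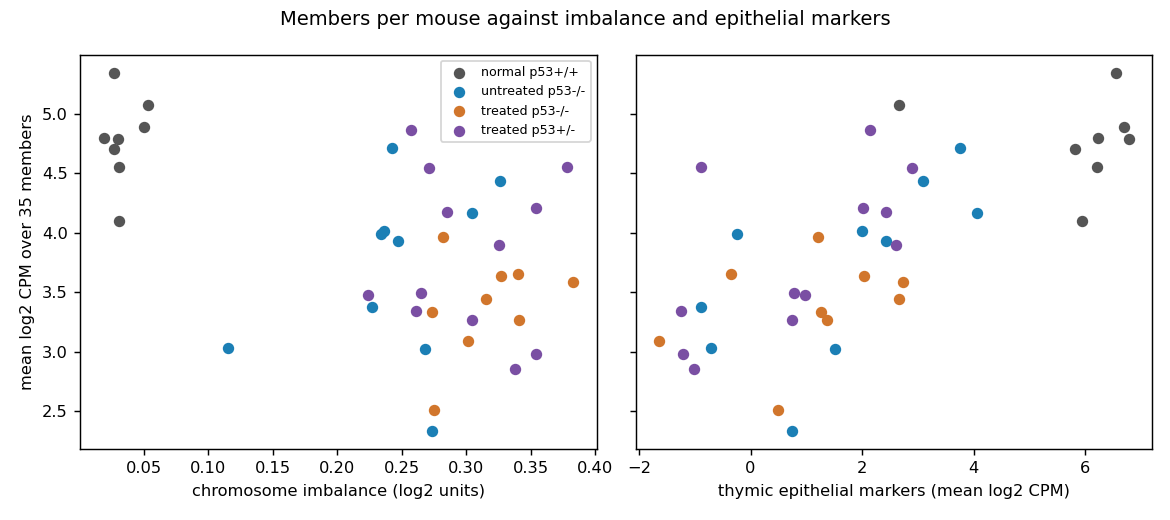
Mean log2 CPM over the 35 members in each mouse (y axis) against chromosome imbalance in log2 units (left) and against the mean log2 CPM of 9 thymic epithelial markers (right). The normal thymuses sit at an imbalance of 0.053 or less with member means from 4.10 to 5.35, and the lymphomas at 0.115 or more with member means from 2.33 to 4.86.

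The last comparison used the 54 biopsies of 13 tumours, and asked whether tumours differed more than biopsies of 1 tumour. All 35 members differed between tumours of a group in edgeR's quasi-likelihood F-test (adjusted p under 0.05), as did 94.0% of 16632 genes, so the count is close to that of genes in general. Ifi204 had the lowest p (F = 26.04, edgeR adjusted p = 1.92e-14), followed by Stat2 (F = 23.30) and Ifit2 (F = 21.16). The median SD between biopsies of a tumour was 0.65 log2 units over the members and 0.38 over all genes, and that between tumours 1.02 and 0.57. Taken gene by gene, the ratio of the second to the first had a median of 1.51 for the members and 1.57 for all genes. Stat2 varied least within tumours (SD 0.21) and Ifi213 most (SD 1.27). Ifi213 was at the floor of the scale, -2.895 log2 CPM, in biopsies 857_5 and 869_5, so counting noise adds to its SD.

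Some tumours were even and others not. The 4 biopsies of tumour 884 had member means between 4.10 and 4.15. In tumour 869 one biopsy was at 4.50 and the other three between 2.16 and 2.60. There Oasl2 was at 4.67 log2 CPM against 0.68, 1.63 and 1.56, Isg15 at 4.58 against -0.26, 1.52 and 1.94, and Irf7 at 5.82 against 2.10, 2.25 and 2.98. Stat2 was nearly level in that tumour, at 5.18 against 5.21, 4.92 and 5.16. The high biopsy had an imbalance of 0.270 against 0.339 to 0.351 and macrophage markers of 5.33 mean log2 CPM against 4.323 to 4.999. It also had the highest T-lineage markers (7.93 against 7.12 to 7.21), the lowest mesenchyme markers (4.92 against 5.28 to 5.74) and the fewest counts (8.85 M against 12.74 to 17.32 M). In tumour 862 the member means of the 5 biopsies were 2.56, 2.73, 3.19, 3.41 and 4.23, with imbalance at 0.262, 0.292, 0.255, 0.192 and 0.158 and macrophage markers at 5.52, 4.99, 5.58, 6.07 and 6.70. In both, the biopsy with the highest member mean was the least unbalanced. These tumours were picked for their spread: over all 13 tumours the biopsy of highest member mean was the least unbalanced in 7 and the most unbalanced in 1 (tumour 908), and it was the highest in macrophage markers in 7. The part of other cells in these differences was not tested.

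**Figure D4:**
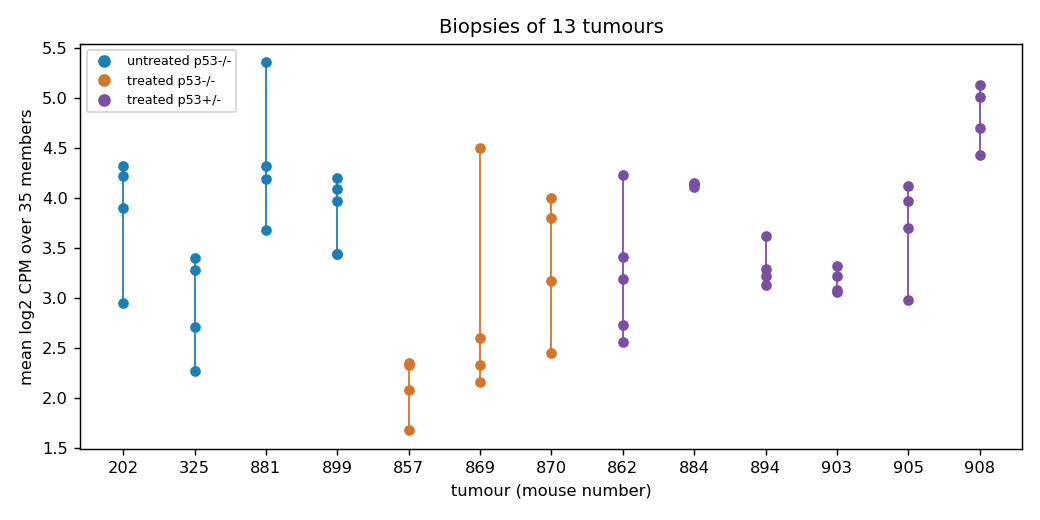
Mean log2 CPM over the 35 members (y axis) in each biopsy of 13 tumours (x axis, mouse number), coloured by group, with a line from the lowest to the highest biopsy. Biopsies span 0.05 in tumour 884 and 2.33 in tumour 869.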

How the data were processed

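RNA was sequenced from 81 libraries of 40 mice. The values the authors deposited are expected counts, estimated per gene and not scaled to library size. The submitters' processing notes name CASAVA 1.8, fastp, STAR 2.7.2b, RSEM 1.1.17 and the build mm10; strandedness of counting is not given in the sources used here. The counts were rounded and the biopsies of a mouse summed. Tests used edgeR 4.0.16 in R 4.3.3 (TMM, filterByExpr, robust quasi-likelihood fit, labelled sex as covariate, Benjamini-Hochberg adjustment over all genes tested). One fit held normal thymus and the 3 lymphoma groups, another the lymphoma groups, also with chromosome imbalance added, and the last the biopsies of 13 tumours. Log2 CPM has TMM factors and a prior count of 2. DESeq2 1.42.0 and limma 3.58.1 were alternatives. The code was tested on simulated data.

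Groups followed the labels. The labels do not say how the mice relate to litters or batches. Members, pathway genes and cell type markers were chosen with earlier results of these data known. Values are given for 21 members set by name, for the 3 largest rises and falls of each contrast and for the lowest p-values, and from each pathway role for up to 2 called genes of largest change, others there being chosen after their values were seen. The genes that lost a call without mouse 387, the members shared by all contrasts, Ifit2, Ifit3b, Oas2, Ddx58 and the biopsies described were chosen after their values were seen. Promoters came from RefSeq, and positions from GRCm38. For 13 members the annotation has another gene overlapping the span (for 11 of them on the opposite strand), and without strand such reads cannot be told apart. Depth was 1.03 to 26.87 M counts a library, with 4 libraries under 5 M counts. Reads carry no molecular identifiers. Some genes of the pathway list are not reported here.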

Additional observations from a re-analysis of the deposited data

Results flagged for a closer look

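Within each group of 8 to 10 mice, the highest and lowest mouse were checked for a gap to the next mouse that was wide for the range of the group, over 69 pairs of a group and a named member. Chance flags about 1 in 20 such groups, and 4 pairs were flagged. In normal thymus, mouse 387 was the lowest for Usp18, at 3.45 log2 CPM with the next mouse at 4.84, and the highest for Gbp2, at 7.28 with the next at 6.30. This is the mouse with few T-lineage and thymic epithelial transcripts. In untreated p53-/- lymphomas, tumour 881, with the high B-lineage markers, was the highest for Dhx58, at 5.33 with the next at 3.73. In the same group tumour 120 was the highest for Rsad2, at 3.83 with the next at 2.61.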

How the results depend on the processing

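The members called against normal thymus numbered 2 to 21 in untreated p53-/-, 10 to 27 in treated p53-/- and 2 to 22 in treated p53+/- lymphomas over 15 alternatives each. The counts moved by over 1.5 times with the thymic epithelial markers as a covariate (2, 10 and 2) and with the B-lineage markers (9, 13 and 6), and in treated p53+/- lymphomas without mouse 387 and tumour 881 (11, chosen after seeing the data). The thymic epithelial covariate nearly repeats the split between normal thymus and lymphoma. The share of all genes called in these alternatives is not given here. Leaving out 1 mouse at a time gave 13 to 17, 22 to 25 and 10 to 21, with 10 reached without normal mouse 387. DESeq2 called 1 member between treated and untreated p53-/- lymphomas and 4 for imbalance, where edgeR called 0; the cause was not tested. Of the values of named members, 485 kept their direction and call, 65 lost the call, and 2 changed sign, both with the thymic epithelial covariate: Oas1a in treated p53-/- (0.24) and Dhx58 in treated p53+/- lymphomas (0.31). All 35 members differed between tumours under all 3 alternatives run. No paired analysis was possible because the replicate labels are mouse numbers, which the groups do not share. Imbalance was read from RNA, 4 libraries held under 5 M counts, and the sexes were unequal between groups.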
